A study of Mus musculus with 48 samples.

Results

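The perilipins are a small family of proteins that coat lipid droplets, and 4 of them, Plin2, Plin3, Plin4 and Plin5, were described in RNA from whole mouse livers. They were taken by gene symbol from a joined table of 29221 genes, and all 4 were found and tested in every comparison. The 48 libraries, each from 1 mouse, came from a study of hepatocyte PPARγ (the product of Pparg) in diet-induced fatty liver disease. Every mouse carried floxed Pparg alleles and received an adeno-associated virus after 16 weeks on diet. The virus was AAV8-TBG-Cre, in which the hepatocyte-directed TBG promoter drives Cre recombinase, for the groups labelled knockout. Controls received AAV8-TBG-null, which lacks Cre, so deletion was directed at hepatocytes and other liver cells were not targeted. Males formed 4 groups of 6 libraries, control and labelled knockout on a high fat (HF) diet for 34 weeks or on the HF diet for 18 weeks and then a high fat, cholesterol and fructose (HFCF) diet for 16 weeks. Females formed 6 groups of 4 libraries, with the same diets plus a low fat (LF) diet for 34 weeks. The labels call the LF livers healthy, the HF livers steatotic and the HFCF livers steatohepatitic, and describe the mice as adult.

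Lipid droplets store triglyceride and cholesteryl ester behind a single layer of phospholipid, and perilipins on that layer govern the access of lipases. Plin2 is the main droplet coat of hepatocytes and its protein is stabilised by binding to droplets. Plin3 is made in most tissues and moves between the cytosol and new droplets. Plin4 is best known from adipocytes and striated muscle, where it coats small nascent droplets. Plin5 belongs to tissues that burn fatty acids, where it binds the lipase encoded by Pnpla2 and brings droplets close to mitochondria. PPARγ is a fatty acid sensing nuclear receptor that is low in lean liver, rises in fatty liver and activates droplet genes in adipocytes.

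Pparg was examined as a check of the labels. Its group means ran from 10.5 to 34.3 normalised read counts (CPM, reads scaled to a common library size) in controls and from 15.6 to 55.9 CPM in labelled knockouts, and the labelled-knockout mean was the higher one in all 5 pairs. On the HFCF diet Pparg was called higher in labelled-knockout males (log2 change 0.81, edgeR adjusted p 0.000805) and females (0.97, 0.0422), and no library of either group overlapped its controls. Reads were summed over all of Pparg, and those inside and outside a deleted part were not separated, and the libraries are called labelled knockouts throughout. Libraries held 15338239 to 22072884 reads on genes. Hepatocyte markers (Alb, Apoa1, Ttr, Apoc3, Cps1) summed to between 36757 and 117251 CPM in every library. Of the adipocyte markers, Plin1, the adipocyte perilipin, had reads in 2 of 48 libraries, Adipoq was at 0 in 44 and Retn at 0 in 40, while Lep was not found in the tables and Adrb3 was detected in all. Striated muscle markers summed to at most 2.19 CPM. Among females, 2 libraries stood apart. Control replicate 1 on the HF diet had a summed level of stellate cell and fibroblast markers of 348 CPM against 91.1 to 138 CPM in the other 3, and labelled-knockout replicate 1 on the HFCF diet had summed hepatocyte markers of 108777 CPM against 60057 to 75992 CPM. Among males, HF labelled-knockout replicates 3, 4 and 5 had blood markers of 664, 485 and 651 CPM against 86.2 to 90.1 CPM in the other 3. HFCF control replicate 1 had stellate cell and fibroblast markers of 234 CPM against 392 to 418 CPM and macrophage markers of 323 CPM against 442 to 643 CPM. Macrophage markers were also at 169 CPM in HF control replicate 6, against 283 to 338 CPM in its group. They were at 766 CPM in HFCF labelled-knockout replicate 1, against 470 to 541 CPM. HFCF labelled-knockout replicate 6, which had the lowest Plin4 of its group (9.76 CPM), had stellate cell and fibroblast markers of 231 CPM against 316 to 409 CPM.

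The genes lie on the minus strand in the mouse assembly GRCm38. Plin2 (ENSMUSG00000028494) spans chromosome 4 from 86648386 to 86670060. The other 3 lie on chromosome 17, with Plin4 (ENSMUSG00000002831) from 56100591 to 56109803, Plin5 (ENSMUSG00000011305) from 56111601 to 56117596 and Plin3 (ENSMUSG00000024197) from 56277476 to 56292873. Plin4 and Plin5 are therefore neighbours with 1797 bases between them. The end of Plin4 overlaps Hdgfl2, a gene on the opposite strand, by a few bases, and because the libraries were not strand specific, reads in that overlap cannot be told apart. Hdgfl2 had 475 to 802 reads per library and Plin4 at least 51.

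The sequence upstream of each start is shown because Plin4 and Plin5 are neighbours whose counts are set side by side in the comparisons. PPARγ binds DNA with its partner RXR at paired copies of the letters AGGTCA. Windows of 250 bases before the RefSeq start (GRCm38.p6) are given 5′ to 3′ on the gene's own strand, without bases that GENCODE M21 places in an exon, and with matches to AGGTCA on either strand in capitals. They run over chr4:86670061-86670309 for Plin2, chr17:56290512-56290761 for Plin3 (inside an intron of a longer annotated transcript), chr17:56109804-56110032 for Plin4 and chr17:56117597-56117798 for Plin5. Plin5 had 2 such windows, and only the one whose start lies nearer the annotated gene end was searched and is shown. No GENCODE M21 transcript of Plin5 held an exact match to the first bases after that start.
Plin2: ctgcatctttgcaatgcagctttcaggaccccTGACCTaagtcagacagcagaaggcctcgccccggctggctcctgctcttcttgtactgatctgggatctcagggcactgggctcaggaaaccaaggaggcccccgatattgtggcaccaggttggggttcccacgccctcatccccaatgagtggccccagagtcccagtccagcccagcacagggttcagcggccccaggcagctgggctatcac
Plin3: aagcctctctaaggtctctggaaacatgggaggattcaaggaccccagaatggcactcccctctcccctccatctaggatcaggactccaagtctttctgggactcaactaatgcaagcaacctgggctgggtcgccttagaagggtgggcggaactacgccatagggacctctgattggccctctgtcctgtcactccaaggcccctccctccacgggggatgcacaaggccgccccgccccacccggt
Plin4: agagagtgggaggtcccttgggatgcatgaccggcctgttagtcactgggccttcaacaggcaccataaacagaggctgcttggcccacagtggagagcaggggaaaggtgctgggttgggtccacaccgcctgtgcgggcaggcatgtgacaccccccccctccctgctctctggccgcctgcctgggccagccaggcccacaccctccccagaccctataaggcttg
Plin5: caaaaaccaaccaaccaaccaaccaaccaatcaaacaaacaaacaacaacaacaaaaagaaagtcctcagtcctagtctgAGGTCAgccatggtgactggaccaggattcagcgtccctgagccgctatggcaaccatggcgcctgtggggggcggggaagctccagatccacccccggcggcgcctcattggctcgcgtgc
AGGTCA was found once in the Plin2 window, on the opposite strand at bases -218 to -213 from the start, and once in the Plin5 window, on the gene's strand at bases -170 to -165. It was in neither the Plin3 nor the Plin4 window. Of 32851 windows of the same length from 27025 genes, 14.024% held AGGTCA. The paired form, 2 copies of AGGTCA in the same direction with 1 base between them, was in 0.033% of windows and in none of the 4. The E-box CACGTG, the same on both strands, was in 6.021% of windows and in none of the 4. The searches covered all 250 bases of each window, and a match is only a description of these letters.

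Per length of gene, Plin2 was the most abundant perilipin in every group. It made up between 76.5% and 82.3% of the summed CPM per kb of the 4 genes in the means of the 10 groups. In HF male controls the remainder was nearly evenly divided, with Plin3 at 7.41% ± 0.65 (SD, n = 6), Plin4 at 6.92% ± 0.51 and Plin5 at 7.76% ± 1.30. In HF male labelled knockouts Plin4 was at 0.85% ± 0.34, Plin3 at 10.2% ± 1.35 and Plin5 at 11.2% ± 2.39. The LF control females also had little Plin4, at 1.38% ± 0.50 (n = 4), and had the highest Plin5 share, at 13.4% ± 3.58. The summed level was 367 ± 31.8 CPM per kb in HF male controls and 203 ± 34.0 CPM per kb in HF male labelled knockouts.

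**Figure D1:**
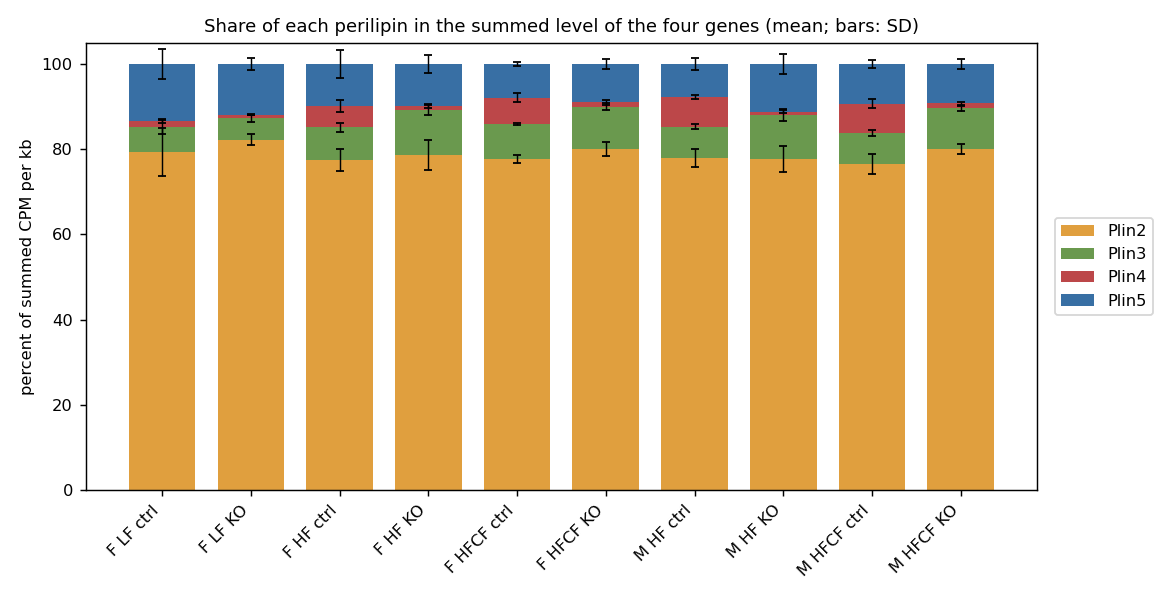
Share of each perilipin in the summed level of Plin2 to Plin5, in percent of CPM per kb, as stacked group means with SD bars (n = 6 in male and 4 in female groups; KO is labelled knockout). Plin2 fills 76.5% to 82.3% of every bar, and the Plin4 layer is 6.92% in HF male controls and 0.85% in HF male labelled knockouts.

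The levels by library separate Plin4 from the other 3 genes. In control livers Plin4 averaged 146 ± 5.29 CPM in HF males, 127 ± 10.1 CPM in HFCF males (SD, n = 6 each), 114 ± 28.6 CPM in HFCF females, 74.4 ± 33.1 CPM in HF females and 21.8 ± 4.26 CPM in LF females (n = 4 each). The 5 labelled-knockout means lay between 8.73 and 17.1 CPM. The 10 group means spanned 8.73 to 146 CPM for Plin4, against 502 to 1007 CPM for Plin2, 56.8 to 103 CPM for Plin3 and 36.2 to 78.4 CPM for Plin5.

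**Figure D2:**
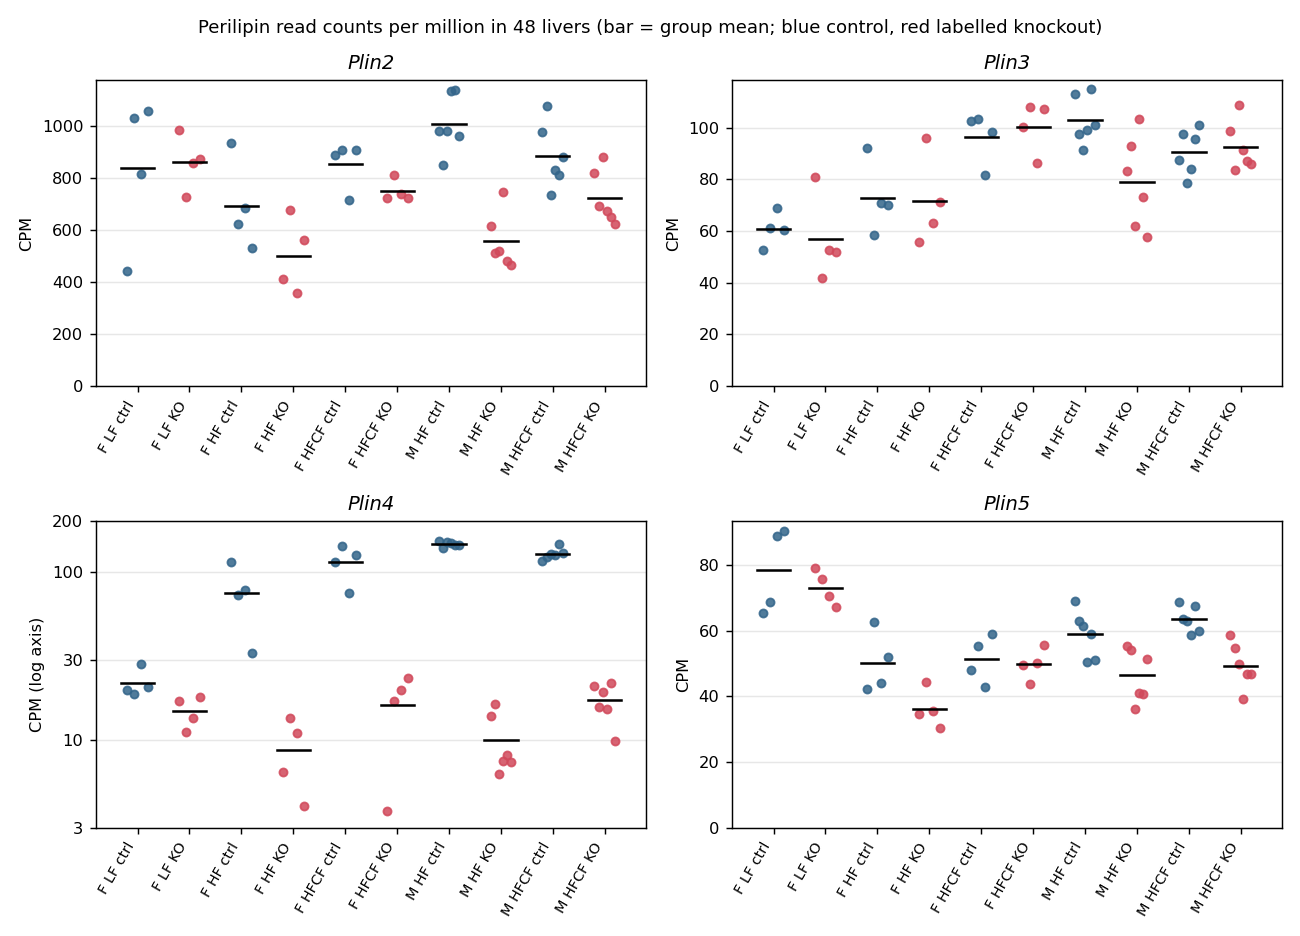
CPM of each perilipin in each of 48 libraries by group (F female, M male, ctrl control, KO labelled knockout), with the group mean as a bar; the Plin4 axis is logarithmic and the others start at 0. Plin4 in labelled knockouts lies between 3.75 and 23.4 CPM on every diet, while controls reach 152 CPM.

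In males on the HF diet, all 4 perilipins were lower in labelled knockouts than in controls and passed the test (adjusted p under 0.05, edgeR quasi-likelihood test with Benjamini-Hochberg adjustment over all genes). In this comparison 18.5% of 14041 genes tested were called. Plin4 in the 6 controls had a lowest value of 137, a median of 147 and a highest value of 152 CPM, and in the 6 labelled knockouts 6.23, 7.77 and 16.3 CPM. The groups were far apart, and Plin4 fell 14.9-fold, a log2 change of -3.90 (SE 0.19) with an edgeR adjusted p of 2.96e-09. Plin2, the main hepatocyte coat, ranged from 849.5 through a median of 980.4 to 1137 CPM in controls and from 467 through 515 to 746 CPM in labelled knockouts. These groups did not overlap either, and the log2 change was -0.86 (SE 0.11, edgeR adjusted p 8.69e-05), a 1.82-fold fall.

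The falls of Plin3 and Plin5 in HF males were smaller, and the groups overlapped. Plin3 had 91.5, 99.9 and 115 CPM as lowest, median and highest in controls and 57.9, 78.1 and 104 CPM in labelled knockouts. Its log2 change was -0.39 (SE 0.12, edgeR adjusted p 0.0343), and 4 of 6 labelled knockouts were below the lowest control. Plin5 had 50.5, 60.2 and 69.1 CPM in controls and 36.3, 46.2 and 55.3 CPM in labelled knockouts. All 6 labelled knockouts were below the control mean of 59.0 CPM, and the log2 change was -0.35 (SE 0.11, edgeR adjusted p 0.0335). Labelled-knockout replicates 3, 4 and 5, the libraries with high blood markers, had 36.3, 41.1 and 40.6 CPM of Plin5. Replicates 1, 2 and 6 had 55.3, 54.1 and 51.3 CPM, inside the control range. The part of blood in the Plin5 difference was not tested. The Plin3 call was lost when control replicate 1 or 5 or labelled-knockout replicate 1, 3, 5 or 6 was left out (edgeR adjusted p up to 0.0772), and the Plin5 call when control replicate 1, 2, 3 or 5 or labelled-knockout replicate 3, 4 or 5 was left out (up to 0.0816).

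Marker genes of other cell types moved in the same livers. All 5 hepatocyte markers were called higher in HF male labelled knockouts, where their sum ran from 87197 to 100895 CPM against 59725 to 82730 CPM in controls. Of 5 stellate cell and fibroblast markers 2 were called lower (Col1a1 and Reln), with a summed range of 145 to 203 CPM against 196 to 311 CPM. Of 6 macrophage markers 2 were lower and 1 higher, and of 3 blood markers 2 were higher. Their part in the perilipin changes was not tested, and in bulk RNA fewer cells of a type and less RNA per cell cannot be told apart.

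In males on the HFCF diet the same contrast called Plin4 and Plin5, or 2 of 4 perilipins, where 2.21% of 14685 genes were called. Plin4 had 115, 126 and 146 CPM as lowest, median and highest in controls and 9.76, 17.4 and 21.9 CPM in labelled knockouts. Again the groups did not overlap, and Plin4 fell 7.44-fold (log2 change -2.89, SE 0.15, edgeR adjusted p 1.08e-07). Plin5 had 58.7, 63.3 and 68.7 CPM in controls and 39.3, 48.4 and 58.7 CPM in labelled knockouts, of which 5 were below the lowest control. Its log2 change was -0.37 (SE 0.08, edgeR adjusted p 0.0300).

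Plin2 and Plin3 did not pass the test in HFCF males. Plin2 had 734, 855 and 1076 CPM in controls and 621, 683 and 880.1 CPM in labelled knockouts, so that the groups overlapped (log2 difference -0.29, SE 0.11, edgeR adjusted p 0.194). For Plin3 the difference was 0.03 (SE 0.08, edgeR adjusted p 0.913), with a 95% interval from -0.14 to 0.20. None of the hepatocyte markers was called here and 1 of 6 macrophage markers was called higher. The Plin5 call was lost without control replicate 2, 3 or 5 or labelled-knockout replicate 5 or 6 (edgeR adjusted p up to 0.0728) and with all 10 groups in one fit (0.102).

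In females Plin4 was lower in every labelled knockout than in every control on each of the 3 diets, but no perilipin was called by the edgeR test in any of these comparisons. On the HF diet the 4 controls measured 114, 73.0, 78.1 and 32.9 CPM and the 4 labelled knockouts 6.46, 13.4, 11.0 and 4.01 CPM. The controls themselves spread widely, and the fitted difference was 8.47-fold (log2 difference -3.08, SE 0.43, 95% interval -4.04 to -2.12, edgeR adjusted p 0.321). In the HFCF diet groups the controls measured 114, 142, 74.5 and 125 CPM and the labelled knockouts 3.75, 17.1, 19.8 and 23.4 CPM. Here the log2 difference was -2.80 (SE 0.41, 95% interval -3.70 to -1.89, edgeR adjusted p 0.0529), just short of a call. On the LF diet Plin4 was low in both, at 19.7, 18.8, 28.1 and 20.7 CPM in controls and 16.9, 11.1, 13.5 and 18.0 CPM in labelled knockouts (log2 difference -0.54, SE 0.18, edgeR adjusted p 0.9996).

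For each of these 3 female comparisons of Plin4 alone, a 2-sided exact permutation test gave p = 0.0286, the smallest that 4 against 4 libraries allow. The share of genes called was 0% of 14285 on the LF diet, 0% of 14128 on the HF diet and 0.0534% of 14980 on the HFCF diet. At an unadjusted edgeR p under 0.05 there were 355, 1135 and 1340 genes, and the DESeq2 Wald test called 8, 70 and 81. At an unadjusted edgeR p under 0.05 there were 1, 2 and 1 of the 4 perilipins on the LF, HF and HFCF diets, Plin4 on each and Plin5 on the HF diet. Plin4 was among those called by the Wald test on the HF diet (DESeq2 adjusted p 6.66e-06) and on the HFCF diet (8.95e-05), but not on the LF diet (0.9999). It was also called on both diets without a filter on low counts and with all 10 groups in one fit. Without labelled-knockout replicate 1, the library with high hepatocyte markers and the lowest Plin4, the HFCF log2 difference of Plin4 was -2.49 (edgeR adjusted p 0.00223). Without control replicate 1, the HF difference of Plin4 was -2.80 (edgeR adjusted p 0.437).

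The other perilipins differed less between female genotypes. Plin2 in HF females was 935, 621, 685 and 530.3 CPM in controls and 412, 676, 357 and 562 CPM in labelled knockouts, which overlapped (log2 difference -0.47, SE 0.22, edgeR adjusted p 0.645). Plin5 in HF females was 42.2, 62.7, 44.0 and 52.0 CPM in controls and 34.6, 44.5, 35.5 and 30.2 CPM in labelled knockouts (log2 difference -0.47, SE 0.15, edgeR adjusted p 0.584). These 2 differences have the sign seen in males, without passing the test. Plin3 differed by -0.03 (95% interval -0.43 to 0.38) in HF females, 0.08 (-0.18 to 0.33) in HFCF females and -0.09 (-0.48 to 0.30) in LF females, all on the log2 scale. For Plin2 and Plin5 the differences were -0.17 and -0.03 on the HFCF diet and 0.05 and -0.09 on the LF diet.

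**Figure D3:**
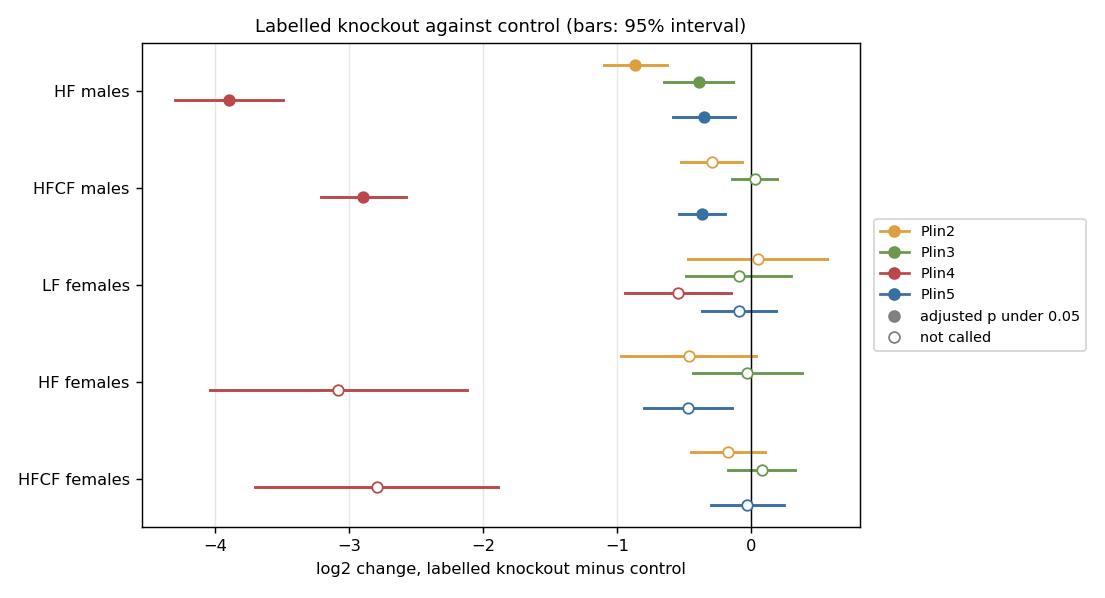
Log2 change of each perilipin, labelled knockout minus control, in the 5 sex and diet groups, with 95% intervals; filled points have an edgeR adjusted p under 0.05. Plin4 lies between -3.90 and -2.80 in the 4 HF and HFCF comparisons and at -0.54 in LF females, where the other 3 genes lie near 0.

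Whether the labelled-knockout effect depended on diet or sex was tested directly. In males the Plin4 fall was smaller on the HFCF than on the HF diet, an interaction of 0.99 on the log2 scale (SE 0.25, 95% interval 0.48 to 1.49, edgeR adjusted p 0.0393), and it was the 1 perilipin of 4 called where 1.56% of 15096 genes were. This call was kept in 9 of 24 fits with 1 library left out (edgeR adjusted p from 0.00532 to 0.0728). It was lost without HF control replicate 1, 3, 4, 5 or 6, HF labelled-knockout replicate 3, 4, 5 or 6, HFCF control replicate 2, 3 or 6, or HFCF labelled-knockout replicate 1, 3 or 5, and also with all 10 groups in one fit (0.334) and with the replicate number as a block (0.0630). Over all genes the 235 calls became 12 with all 10 groups in one fit, 610 by the DESeq2 Wald test, 127 with the block and 119 to 412 with 1 library left out. The corresponding terms were 0.56 for Plin2 (SE 0.16, edgeR adjusted p 0.0703), 0.40 for Plin3 (SE 0.15, 0.171) and -0.03 for Plin5 (SE 0.14, 0.944).

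In females the interaction term of Plin4, the labelled-knockout effect on HF minus that on LF, was -2.53 on the log2 scale (SE 0.48, 95% interval -3.55 to -1.51). This term had an unadjusted edgeR p of 7.42e-05 and an edgeR adjusted p of 0.927. It was called by the DESeq2 Wald test (adjusted p 0.00162) and with all 10 groups in one edgeR fit (0.0244). With the 4 groups of this comparison alone, edgeR called no perilipin and no gene (0% of 14938; 554 genes had an unadjusted p under 0.05 and 2 passed the Wald test). Between HFCF and HF in females the Plin4 term was 0.28 (95% interval -1.05 to 1.61), and edgeR called 0 of 4 perilipins and 0% of 15445 genes. Here 667 genes had an unadjusted p under 0.05, Plin5 among them, and 0 passed the Wald test.

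Between the sexes, the labelled-knockout effect on Plin4 was more negative in males by 0.81 log2 units on the HF diet (95% interval of the term -1.71 to 0.10, edgeR adjusted p 0.519). On the HFCF diet the Plin4 term was -0.10 (-0.91 to 0.72, edgeR adjusted p 0.961). No perilipin passed in either by edgeR or the Wald test (0 and 1 at an unadjusted p under 0.05), and 0% of 15024 and 0% of 15673 genes passed in edgeR. Unadjusted p-values under 0.05 were found for 1590 and 1515 genes, and the Wald test called 46 and 17. Without female HF control replicate 1 the HF term was called for 287 genes and for 0 of 4 perilipins. Plin5 gave terms of 0.13 and -0.34 (edgeR adjusted p 0.829 and 0.469).

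Among control females Plin4 was lowest on the LF diet. The 4 LF controls lay between 18.8 and 28.1 CPM, the 4 HF controls between 32.9 and 114 CPM, and the 4 HFCF controls between 74.5 and 142 CPM. Against LF, Plin4 rose 3.45-fold in the HF controls (log2 change 1.78, SE 0.31, edgeR adjusted p 0.0417) and 5.19-fold in the HFCF controls (2.38, SE 0.20, edgeR adjusted p 0.000213), with no overlap in either. In these comparisons 0.696% of 14216 and 35.2% of 14755 genes were called, and 1 and 3 of the 4 perilipins. The HF against LF call was kept in 2 of 8 fits with 1 library left out, those without HF control replicate 1 or 4, and the edgeR adjusted p ran up to 0.135. From HF to HFCF the Plin4 difference of 0.62 (SE 0.33, edgeR adjusted p 0.172) was not called. Without HF control replicate 1, the library with high stellate cell markers, that difference of Plin4 was 0.90 (edgeR adjusted p 0.0289).

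Plin5 went the other way in these controls. The LF controls measured 65.4, 68.9, 89.0 and 90.5 CPM, the HF controls 42.2, 62.7, 44.0 and 52.0 CPM, and the HFCF controls 48.2, 55.5, 42.8 and 59.2 CPM. Every LF control exceeded every HF and HFCF control. Plin5 fell by 0.62 on the log2 scale in HFCF against LF (SE 0.13, edgeR adjusted p 0.00624), while the HF against LF difference of -0.63 (SE 0.15) had an edgeR adjusted p of 0.0928. By the DESeq2 Wald test the latter Plin5 difference was called (adjusted p 0.00892).

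Plin3 was higher on the HFCF diet. The 4 LF controls measured 52.5, 61.4, 69.1 and 60.6 CPM and the 4 HFCF controls 103, 103, 81.7 and 98.2 CPM. The groups were separate, and Plin3 rose 1.58-fold (log2 change 0.66, SE 0.10, edgeR adjusted p 0.00150). From HF to HFCF Plin3 rose by 0.41 (SE 0.14, edgeR adjusted p 0.0483), the 1 call among 4 perilipins where 30.8% of 14701 genes were called, and this call was lost without HF control replicate 2, 3 or 4 or HFCF control replicate 1, 2 or 5. Plin2 in control females showed no call among diets, with 443, 1030.0, 813 and 1058 CPM in LF controls and 888, 906, 714 and 908 CPM in HFCF controls. The LF control replicate 1 had the lowest of these Plin2 values. Without HF control replicate 1, Plin2 was called higher in HFCF against HF controls (log2 change 0.49, edgeR adjusted p 0.0127) and Plin3 rose by 0.55 (0.00282), in a fit that called 6530 genes in all against 4526 with every library. In the HFCF against LF controls 5 of 6 macrophage markers and 3 of 5 stellate cell and fibroblast markers were called higher and 5 of 5 hepatocyte markers lower, and their part in the perilipin changes was not tested.

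In labelled-knockout females Plin5 was again lower and Plin3 again higher on the HFCF than on the LF diet, and no diet change of Plin4 was called. Plin5 measured 79.3, 75.7, 70.6 and 67.3 CPM in the LF group, 34.6, 44.5, 35.5 and 30.2 CPM in the HF group and 49.4, 43.8, 50.2 and 55.6 CPM in the HFCF group. The LF libraries were above all others. Plin5 fell 2.01-fold in HF against LF (log2 change -1.01, SE 0.12, edgeR adjusted p 0.0181), fell by 0.52 in HFCF against LF (SE 0.12, 0.0176) and rose by 0.46 in HFCF against HF (SE 0.13, 0.0394). Plin3 rose by 0.86 in HFCF against LF (SE 0.18, edgeR adjusted p 0.0127), with 80.8, 42.0, 52.7 and 51.9 CPM in the LF group and 100.1, 108, 86.4 and 107 CPM in the HFCF group. For Plin4 the HF against LF difference was -0.75 (SE 0.32, edgeR adjusted p 0.348) and the HFCF against LF difference 0.17 (SE 0.40, 95% interval -0.70 to 1.03, 0.835). The HFCF against HF difference of Plin3 was 0.50 (SE 0.16, edgeR adjusted p 0.0660) and was not called. Whether the HFCF against LF change of Plin4 differed between controls and labelled knockouts was not tested.

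The share of genes called in these labelled-knockout female comparisons was 0.155% of 14214 for HF against LF, 12% of 14614 for HFCF against LF and 14.5% of 14650 for HFCF against HF, with 1, 2 and 1 of 4 perilipins. Plin2 in HF against LF (log2 difference -0.77, SE 0.19) did not overlap between the groups, with 984, 727, 856 and 871 CPM on LF, and had an edgeR adjusted p of 0.117 (0.00525 by the DESeq2 Wald test). Of all genes, the Wald test called 510 in HF against LF, where edgeR called 22. Some of the edgeR calls in these 3 comparisons rest on few libraries. The HF against LF fall of Plin5 was kept in 5 of 8 fits with 1 library left out (lost without LF replicate 2 or 4 or HF replicate 1), the HFCF against HF rise of Plin5 in 2 of 8 (lost without HF replicate 1, 3 or 4 or HFCF replicate 2, 3 or 4). Without HFCF replicate 1 all 4 perilipins were called higher in HFCF against HF, Plin4 with a log2 difference of 1.22 (edgeR adjusted p 0.0235), in a fit that called 4402 genes in all against 2118 with every library. The HFCF against LF call was lost for Plin3 without LF replicate 2 and for Plin5 without HFCF replicate 2 or 3. Macrophage markers called higher numbered 5 of 6 in HFCF against LF and 3 of 6 in HFCF against HF, and stellate cell and fibroblast markers 2 of 5 and 4 of 5, and their part in the perilipin changes was not tested.

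In males the diets compared were HFCF and HF. Control males showed 0 of 4 perilipins called by edgeR, where 22.3% of 14475 genes were. At an unadjusted edgeR p under 0.05 there were 1 of the 4 perilipins and 5250 of all genes. The DESeq2 Wald test called 1 of the 4 perilipins and 3800 of all genes. Plin4 came nearest, with 5 of 6 HFCF controls below the lowest HF control and a log2 difference of -0.17 (SE 0.06, edgeR adjusted p 0.0550, and 0.0205 by the DESeq2 Wald test). In control males 5 of 6 macrophage and 3 of 5 stellate cell and fibroblast markers were called higher and 2 of 5 hepatocyte markers lower. In labelled-knockout males Plin2 and Plin4 were called higher on the HFCF diet, 2 of 4 where 41.7% of 14314 genes were called, a share of the same order. Plin4 had a log2 change of 0.81 (SE 0.24, edgeR adjusted p 0.0123) and Plin2 one of 0.39 (SE 0.12, 0.0152), and both calls were kept in 12 of 12 fits with 1 library left out. For Plin2 the call was lost by a small margin with all 10 groups in one fit. Beside these, 5 of 6 macrophage and 4 of 5 stellate cell and fibroblast markers were called higher, and 5 of 5 hepatocyte and 3 of 3 blood markers lower. Their part was not tested.

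The difference between males and females in the HFCF against HF change was also tested. In controls no perilipin was called by edgeR, where 0.00646% of 15491 genes were. At an unadjusted edgeR p under 0.05 there were 3 of the 4 perilipins and 2561 of all genes. The DESeq2 Wald test called 1 of the 4 perilipins and 134 of all genes. Terms were -0.47 for Plin2, -0.56 for Plin3 (SE 0.15, edgeR adjusted p 0.161) and -0.79 for Plin4 (SE 0.29, 0.228). Without female HF control replicate 1, all 3 were called, at -0.64 for Plin2, -0.69 for Plin3 and -1.06 for Plin4 (edgeR adjusted p 0.0212, 0.00409 and 0.0157), in a fit that called 1699 genes in all against 1 with every library. In labelled knockouts 0 perilipins were called by edgeR or the Wald test and 0 had an unadjusted edgeR p under 0.05. Of all genes, edgeR called 0.013% of 15400, the Wald test called 172, and 1829 had an unadjusted edgeR p under 0.05. Plin4 had a term of -0.06 (95% interval -1.19 to 1.06).

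**Figure D4:**
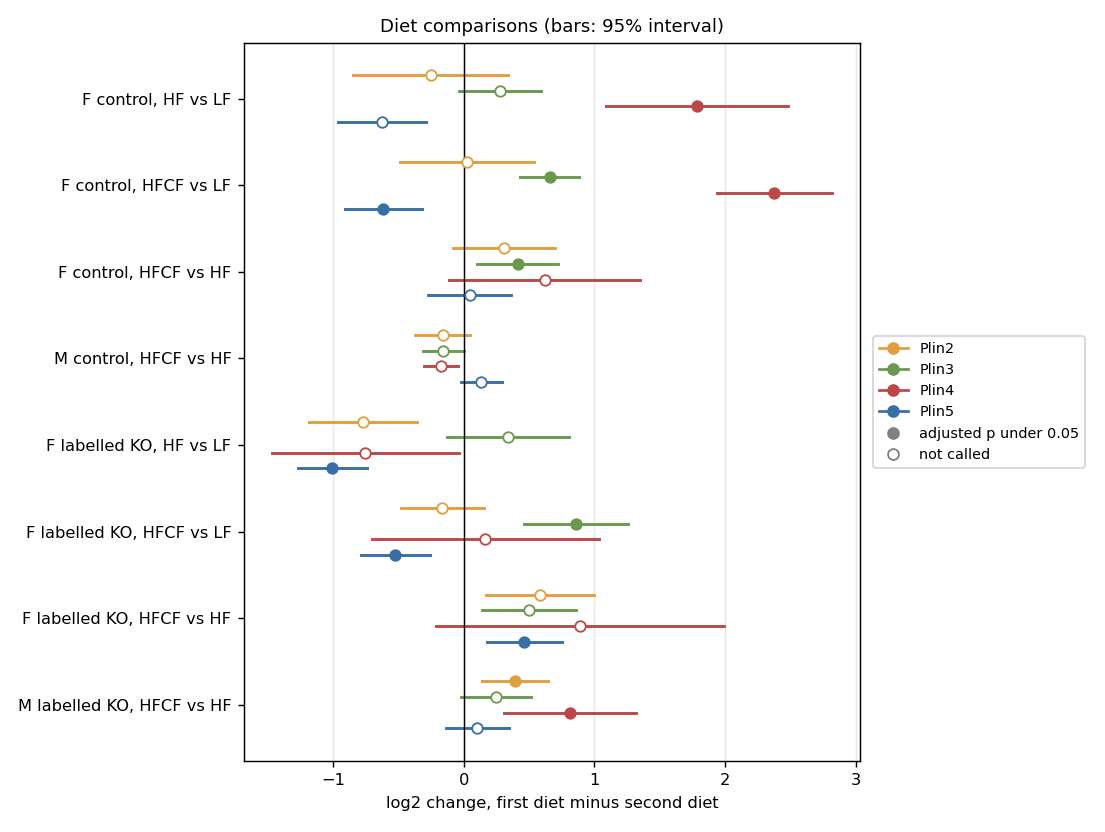
Log2 change of each perilipin between diets in controls (upper 4 rows) and labelled knockouts (lower 4 rows), first diet minus second, with 95% intervals and filled points for an edgeR adjusted p under 0.05. In control females Plin4 lies at 1.78 and 2.38 against the LF diet and in labelled-knockout females at -0.75 and 0.17, while Plin5 is negative against LF in both.

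The order of the 10 group means was read for each gene with neighbours compared by 2-sided exact permutation tests of log2 CPM, adjusted over 36 neighbour pairs by Benjamini-Hochberg. None of the 36 passed, and 3 had an unadjusted p under 0.05. The smallest exact p possible is 0.0286 for 4 against 4 libraries, 0.00952 for 6 against 4 and 0.00216 for 6 against 6. No pair could therefore pass on its own after adjustment over 36, and these tests cannot say whether neighbours differ. The ranks of neighbours are only a description. For Plin4 the order ran from HF male controls through HFCF male controls, HFCF female controls and HF female controls to LF female controls, and then through the 5 labelled-knockout groups, with those on the HF diet lowest. The step from HF to LF female controls was the one step in that order whose ranges did not overlap (exact p 0.0286, adjusted 0.343), and that from HF to HFCF male controls had an exact p of 0.00866 (adjusted 0.312). For Plin5 the order began with the LF females, at 78.4 ± 13.1 CPM in controls and 73.2 ± 5.30 CPM in labelled knockouts, and ended with the HF female labelled knockouts at 36.2 ± 5.99 CPM (SD, n = 4 each). Plin2 was lowest in the HF labelled knockouts of both sexes, and Plin3 was lowest in the LF females.

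Genes with the most similar pattern were ranked by Pearson's r of mean log2 CPM over the 10 groups among 12371 genes. These r values are descriptions over groups that share diets and sexes. The nearest to Plin4 were Adcy6 (r = 0.989), Stat5a (0.971) and Tmem64 (0.945), and within groups over 48 libraries the same pairs had r of 0.557, 0.0844 and 0.488. For Plin2 they were Slc18b1 (0.944), Kdsr (0.897) and Pdk4 (0.895), for Plin3 Parp3 (0.980), Sae1 (0.978) and Anapc2 (0.967), and for Plin5 Als2cl (0.949), Stk40 (0.949) and Nsmf (0.926). Within groups, r in the same order was 0.302, 0.517 and 0.474 for Plin2. It was 0.649, 0.620 and 0.650 for Plin3 and 0.329, 0.130 and 0.321 for Plin5. Cidec, a droplet fusion gene, had r = 0.902 with Plin4 (rank 19) and 0.700 within groups. Among the perilipins themselves Plin2 and Plin3 were most alike within groups (r = 0.656, n = 48), but over the 10 group means their r was 0.284. Over group means Plin2 was more like Plin5 (0.749) and Plin4 (0.714), pairs with r of 0.134 and 0.245 within groups.

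Other lipid droplet genes were counted in 4 lists, beside the perilipins. Their counts in HF males stand against the 18.5% of all genes called there. Of the 3 droplet fusion genes, 2 fell and 1 rose in HF male labelled knockouts. Cidec, which lets droplets exchange and merge their lipid, averaged 134 ± 15.7 CPM in controls and 5.24 ± 0.80 CPM in labelled knockouts (SD, n = 6 each; log2 change -4.68, SE 0.11, edgeR adjusted p 1.14e-13), and its relative Cidea averaged 20.4 ± 6.79 and 0.31 ± 0.18 CPM, with as few as 1 read in a labelled knockout. Cideb rose by 0.22 (edgeR adjusted p 0.0228). The list's median log2 change was -4.68, against 0.00 over all genes tested.

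Droplet formation and triglyceride synthesis genes also moved in HF males, with 5 of 11 lower and 1 higher (list median -0.28). Fitm1, a protein that partitions new triglyceride into droplets, fell by 1.19 on the log2 scale (SE 0.11, edgeR adjusted p 2.81e-06). Mogat1, an acyltransferase of triglyceride synthesis, had a log2 change of -2.79 (SE 0.33) and Gpam, which starts glycerolipid synthesis, one of -0.67 (SE 0.08). Of 8 genes of lipolysis and its regulators 4 were lower and 0 higher (list median -0.35). They were Pnpla2, the main triglyceride lipase and a partner of Plin5, at -0.39 (SE 0.07), its activator Abhd5 at -0.28, Mgll at -0.40 and Lipa at -0.38. Of 6 tested genes of other droplet proteins 2 were lower and 1 higher (list median -0.04).

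In HFCF males, where 2.21% of all genes were called, the counts were 2 of 3 lower for fusion, 1 of 8 lower for lipolysis (Pnpla2, log2 change -0.44, SE 0.07), 3 of 11 lower for formation and synthesis (Fitm1, Fitm2 and Mogat1) and 0 of 6 for other droplet proteins, with 0 higher in any list. In HFCF females Cidec (log2 change -2.39, SE 0.33, edgeR adjusted p 0.0422) and Mogat1 (-1.64, SE 0.24, 0.0494) were called lower, beside Plin4 at an edgeR adjusted p of 0.0529. In HF females edgeR called 0 genes of these lists and 1 of 2, 3 of 8, 4 of 11 and 1 of 6 tested genes had an unadjusted p under 0.05, while in LF females 0 were called and 0 reached that level. The list of targets of PPARA, the receptor that drives fatty acid oxidation, had 8 of 16 lower in HF males (median log2 change -0.41), 1 of 16 lower in HFCF males and 1 of 16 in HFCF females, in both cases Vnn1. Of all genes, 18.5% were called in HF males, 2.21% in HFCF males and 0.0534% in HFCF females. In HF females 0 of these 16 were called by edgeR, with 8 at an unadjusted p under 0.05 and a median log2 difference of -0.38. In the LF to HF comparison of control females Fitm1 rose with Plin4, by 1.95 on the log2 scale (SE 0.32, edgeR adjusted p 0.0322), the 1 call in all of these lists.

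**Figure D5:**
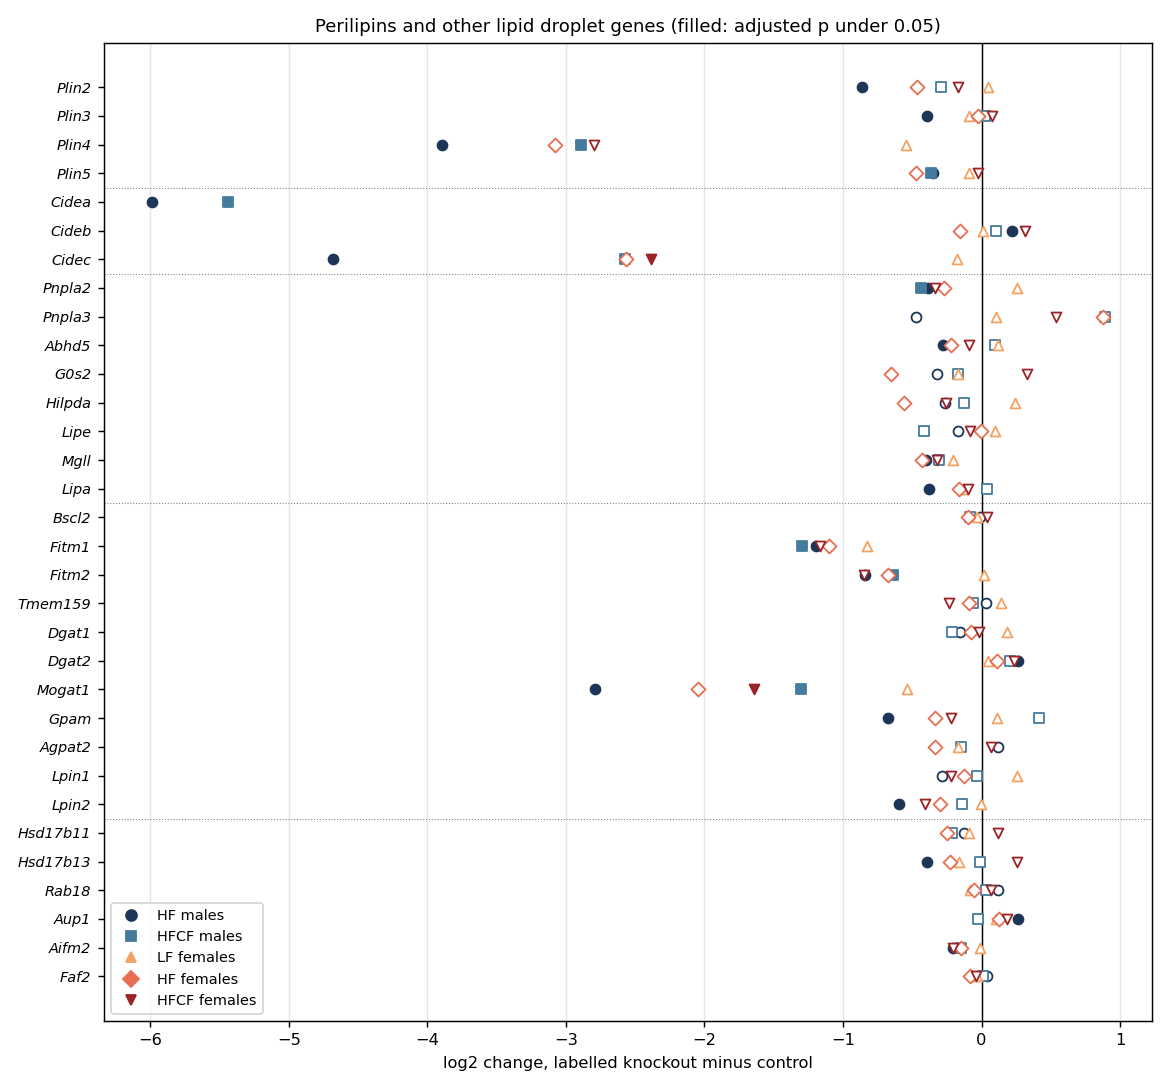
Log2 change, labelled knockout minus control, for the perilipins and the tested genes of 4 droplet lists (dotted lines separate the lists) in the 5 sex and diet groups; filled symbols have an edgeR adjusted p under 0.05. In HF males Cidea, Cidec and Plin4 lie farthest left, with Cidec at -4.68 and Plin4 at -3.90, and most other droplet genes lie within 1 log2 unit of 0.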

How the data were processed

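Whole liver RNA was sequenced from 48 mice with libraries that were not strand specific, per the labels' protocols. Per the submitters' processing notes, STAR 2.6.1, HTSeq 0.6.1 and DESeq2 (given as version 2) were used with GRCm38 (mm10); the role and order of each tool are not given in the sources used here. The authors deposited 11 tables of group comparisons holding raw read counts per gene, a signal column per library, which equals the count divided by 1 factor per library, and FPKM values (fragments scaled by gene length and library size). The tables overlap in libraries, and 1341082 repeated counts were compared, of which 0 differed. They were joined into 29221 genes, and 0 columns of values were left without a sample. Of 29210 genes shared with GENCODE M21, 97.3% had the same coordinates. The table's gene symbols, IDs and lengths are the authors', and promoter sequences are RefSeq's.

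Counts were tested with edgeR 4.0.16 (R 4.3.3, limma 3.58.1) by quasi-likelihood F tests with TMM factors and filterByExpr, on the groups of each comparison alone, and p-values were Benjamini-Hochberg adjusted over all genes tested, with calls at an adjusted p under 0.05. The scripts were tested on simulated data. Exact permutation tests on log2 CPM used SciPy 1.17.1 (Python 3.11.15). Likeness used log2 of CPM plus 0.5 and only genes averaging 1 CPM or more. It left out genes with symbols of predicted genes (Gm, AC or AL followed by digits, or ending in Rik). Replicates are separate mice. Alternatives were DESeq2 1.42.0 size factors and Wald test, no filter, at least 10 counts in every library, a single fit of all 10 groups, a block on replicate number, and leaving out each library. The 48 leave-outs of the group order and the FPKM composition were chosen after seeing the data. The text names the 4 perilipins in every comparison, Pparg and Plin1 in every group, for each perilipin the 3 most alike genes, and called genes of the lists. The members and lists were chosen with earlier results of these data known. Total counts per library ran from 15338239 to 22072884, so that the lowest perilipin count, 51 reads for Plin4, is the least precise.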

Additional observations from a re-analysis of the deposited data

Results flagged for a closer look

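Of 40 combinations of gene and group checked for a library apart from its group, 2 were found, and chance alone flags about 1 in 20. Plin2 in HFCF control females was lowest in replicate 3, at 714 CPM against 888 CPM in the nearest other library. Plin2 in HFCF labelled-knockout females was highest in replicate 2, at 809 CPM against 737 CPM in the nearest. The labelled-knockout effect on Plin4 in males was called different between the HFCF and HF diets, by an interaction term of 0.99 on the log2 scale (edgeR adjusted p 0.0393). This call was kept in 9 of 24 fits with 1 library left out and in 4 of 6 other settings.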

How the results depend on the processing

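Counts of the 4 perilipins called moved as follows. With the DESeq2 Wald test they were 1 for the labelled-knockout comparisons of HF and HFCF females, 2 for HF against LF controls and 2 for HF against LF labelled knockouts, 3 for HFCF against HF labelled-knockout females, 1 for HFCF against HF control males, 2 for the male knockout-by-diet term, 1 for the female HF against LF term and 1 for diet by sex in controls. With all 10 groups in one fit they were, in the same order, 1, 1, 2, 2, 3, then 0 for the male and 1 for the female term, and 1 for labelled knockout against control in HFCF males and 1 for HFCF against HF labelled-knockout males. Without a filter they were 1 and 1 for the HF and HFCF female labelled-knockout comparisons, 0 for HFCF against HF control females and 3 for the labelled-knockout ones, and with DESeq2 size factors 1 for HFCF female labelled knockouts and 1 for HFCF against HF control males. With the replicate block they were 0 for HFCF against HF in control and in labelled-knockout females and 0 for the male term. In that fit Plin5 was -0.0062 for HFCF against HF control females and Plin4 -0.0056 for HFCF against LF labelled-knockout females. No comparison had every same-numbered pair correlated above 0.1, so the numbers were not taken to pair the mice.

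Leaving out 1 library gave 2 to 4 perilipins for labelled knockouts in HF males, 1 to 2 in HFCF males and 0 to 1 in HFCF females. For diet it gave 0 to 1 for HF against LF in control and in labelled-knockout females, 0 to 3 and 0 to 4 for HFCF against HF in control and labelled-knockout females, 0 to 1 in control males and 1 to 2 for HFCF against LF labelled-knockout females. In the HFCF against HF fits the calls over all genes ran from 2454 to 6530 in control and 866 to 4402 in labelled-knockout females. The male knockout-by-diet term ran from 0 to 2 and diet by sex in controls from 0 to 3. Small log2 differences changed sign. Labelled knockout against control ranged from -0.0239 to 0.0609 for Plin3 in HFCF males, -0.1611 to 0.1799 for Plin2 and -0.3124 to 0.0242 for Plin3 in LF females, -0.2032 to 0.1081 for Plin3 in HF females and -0.1047 to 0.0535 for Plin5 in HFCF females. Diet differences ranged from -0.0324 to 0.1631 for Plin5 (HFCF against HF controls), -0.1807 to 0.152 for Plin2 (HFCF against LF controls) and -0.0794 to 0.4458 for Plin4 (HFCF against LF labelled knockouts). Interaction terms ranged from -0.0882 to 0.031 for Plin5 (male diet), -0.102 to 0.2901 and -0.0323 to 0.2607 for Plin3 (female HF against LF and HFCF against HF), -0.407 to 0.1383 for Plin4 and -0.1154 to 0.0203 for Plin3 (sex, HFCF), -0.0251 to 0.1784 for Plin5 (diet by sex, controls) and -0.3852 to 0.1789 for Plin4 (diet by sex, labelled knockouts).

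In each alternative of the group order 0 of 36 neighbour tests passed, although the ranks themselves were not compared. At these group sizes no pair could pass on its own after adjustment over 36. The composition was the same with FPKM, which was fixed in advance. The deposited FPKM equals the count divided by gene length and by 1 factor per library, so the shares within a library cannot differ. Plin4 stayed lower in labelled knockouts under each setting in all 5 comparisons. Over all genes, calls for labelled knockouts in HFCF males ran from 185 to 1052 with 1 library left out (1052 without control replicate 1), and were 719 by the Wald test, 195 with all groups and 165 with the block, against 324. For HF against LF controls they were 667 by the Wald test and 910 with all groups, against 99, and for HFCF against HF controls 0 with the block, against 4526. The cause was not tested.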
